A study of Mus musculus with 6 samples.

Results

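The Egr genes encode the zinc finger transcription factors Egr1, Egr2, Egr3 and Egr4, and the Nab genes encode the corepressors Nab1 and Nab2. These 6 genes were taken by symbol from the deposited table, where each symbol stands on 1 row, and make up 6 of its 31763 genes. RNA of the medial prefrontal cortex (mPFC) was sequenced from 3 saline and 3 morphine samples of male C57BL/6J mice aged 8 to 10 weeks. The mice of both groups went through conditioned place preference (CPP), in which a drug is paired with a chamber: on days 1 to 5 the saline group was injected i.p. with 10 ml/kg saline and the morphine group with 10 mg/kg morphine, and each mouse then spent 45 min in a chamber. A free-access test followed training, and the mice then stayed in the home cage from days 7 to 12 without drug. Tissue was taken directly after a free-access retrieval test of 15 min on day 13, so both groups shared the tests and the handling. No allele was changed in either group. No source used here says whether a sample came from 1 mouse or from several, so the p-values speak only to the spread among these 6 samples, which may be in part technical.

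Egr genes are immediate early genes. In neurons, synaptic activity drives the ERK kinase cascade, which phosphorylates the ternary complex factors that sit with SRF on serum response elements, and CREB on cAMP response elements, and the Egr genes are transcribed within minutes without new protein synthesis. Egr1 (also Zif268) is widely used as a mark of active neurons and takes part in memory consolidation and reconsolidation. Egr3 is induced by activity as well and can be a target of Egr1, Egr2 is best known from myelinating Schwann cells and the hindbrain, and Egr4 is a more divergent member found mostly in neurons. Nab1 and Nab2 bind to Egr proteins and repress their targets, in part through the NuRD complex, and Nab2 is itself induced by Egr proteins in a feedback loop.

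The letters of known control elements were looked up in RefSeq promoter windows of GRCm38.p6, each 300 bases around a transcription start. Windows were at hand for 4 of the 6 members, Egr2, Egr4, Nab1 and Nab2. Egr2 had 5 windows, and Egr4, Nab1 and Nab2 had 1 each. The stretches below are shown because they hold the elements through which activity and the Egr proteins themselves are known to act. They are written 5′ to 3′ on the strand of the gene. Capitals mark the CArG box, the core of a serum response element, and the letters TGACG of a cAMP response element (CRE), read as CGTCA on the other strand, in Egr2 and Egr4. In Nab1 they mark the Egr binding letters GCGTGGGCG.
Egr2, chr10:67537719-67537868, plus strand: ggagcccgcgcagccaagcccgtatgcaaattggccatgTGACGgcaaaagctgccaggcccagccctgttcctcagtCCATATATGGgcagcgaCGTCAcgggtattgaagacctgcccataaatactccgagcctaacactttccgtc
Egr4, chr6:85513590-85513789, minus strand: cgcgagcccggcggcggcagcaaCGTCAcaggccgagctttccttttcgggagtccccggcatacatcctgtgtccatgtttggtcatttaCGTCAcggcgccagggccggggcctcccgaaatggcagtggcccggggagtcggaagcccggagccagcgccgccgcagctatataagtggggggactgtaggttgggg
Nab1, chr1:52500539-52500567, minus strand: actcggccgcGCGTGGGCGggagccggag

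The Egr2 stretch ends at the base before the start of the main transcript and lies in an intron of longer Egr2 transcripts. It holds a CArG box 72 bases before the start, with a CRE core on either side. Another CArG box, CCTTTTTTGG, stood in the window of a different Egr2 start and is not shown. The Egr4 stretch holds 2 CRE cores and ends at the base before its start. The Nab1 stretch lies inside the first, untranslated exon of the longest Nab1 transcript of GENCODE, upstream of the RefSeq start. Nab1 had a second match to the same Egr letters on the other strand as well as a match to GCGGGGGCG and 1 CRE core in its window. The Nab2 window held none of these letters.
Matches were searched on both strands. Of 32851 windows of this length, a CArG box stood in 1.63%, the CRE core in 20.8%, GCGTGGGCG in 0.612% and GCGGGGGCG in 2.91%. The full CRE, TGACGTCA, which holds the core, stood in 1.79% and in none of the members' windows. These shares are per window, while Egr2 was searched in 5. Counted by gene, a CArG box stood in 1.81% of 27025 genes and the CRE core in 23%. A match is a description of the letters and does not show that a factor was bound in these samples.

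Egr genes are short, as is known of immediate early genes, and in this the Nab genes differ from each other. Egr4 spans 2.47 kb (chromosome 6, 85511121 to 85513589, minus strand), with at most 2 exons. Egr1 spans 5.16 kb on chromosome 18 (34859823 to 34864984, plus strand), and Egr3 spans 5.41 kb on chromosome 14 (70077203 to 70082614, plus strand). Egr2 spans 6.71 kb on chromosome 10 (67535475 to 67542188, plus strand) and has 7 annotated transcripts. Nab2 spans 7.65 kb on chromosome 10 (127660918 to 127668568, minus strand), while Nab1 reaches over 43.4 kb on chromosome 1 (52457294 to 52500679, minus strand). The median over 14280 tested protein-coding genes was 26.1 kb, so that 5 of the 6 members are below it.
Only Nab2 overlaps other annotated genes among the members. Its 3′ end overlaps Stat6 by 40 bp, the antisense gene Gm16229 lies within it over 1646 bp, and Nemp1 overlaps its 5′ part by 1668 bp, all on the plus strand. How strand entered the counting was not given in the sources used here, and reads from these stretches cannot be told apart without it. Gm16229 had 45 to 73 counts and Nemp1 93 to 154, against 577 to 796 for Nab2.

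Libraries held 17984153 to 23529592 counts. The 6 members passed the filter on low counts (at least 10 counts in at least 3 libraries) with all libraries, along with 18970 genes in all. Excitatory neuron markers were present, with 10 of 10 genes detected and a summed level of 4357 to 5602 normalized CPM (CPM, counts scaled to library size, here after TMM normalization) per library. Saline sample 1 stood apart. Olfactory bulb markers summed to 816 normalized CPM there against 210 to 233 in the other 5 libraries, with 15 of 16 over 2 times the highest other library. Each of the 10 excitatory markers was lowest there. Inhibitory markers were mixed: their sum was 1043 there against 669 to 742.1 elsewhere, with Gad1, Gad2 and Slc32a1 highest in that library and Pvalb, Lhx6, Lamp5 and Vip, 4 of the 8, lowest. In bulk tissue, fewer cells of a type and less RNA per cell cannot be told apart.

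Levels per length were compared on FPKM. Egr1 had the highest level, 39.2 ± 1.73 FPKM in saline and 42.2 ± 1.05 FPKM in morphine (SD, n = 3), above 95.7% of the genes tested. Egr3 followed at 26.9 ± 5.11 FPKM in saline and 28.8 ± 2.07 FPKM in morphine (SD, n = 3). Egr4 came next at 12.2 ± 0.994 and 13.3 ± 0.882 FPKM, then Nab2 at 12.1 ± 0.202 and 11.3 ± 0.512 FPKM (SD, n = 3). Nab1 was at 9.53 ± 1.37 FPKM in saline and 8.52 ± 0.283 FPKM in morphine (SD, n = 3). Egr2 was lowest, at 2.61 ± 0.635 and 2.63 ± 0.296 FPKM (SD, n = 3), below the median gene.
The ranges over 6 libraries were apart for Egr1 and Egr3, for Egr3 and Egr4, and for Nab1 and Egr2. Egr1 stood 1.32 to 1.78 times above Egr3 in every library, and Egr3 stood 1.9 to 2.50 times above Egr4. Egr4 and Nab2 did not differ beyond their spread, with Egr4 above Nab2 in 5 of 6 libraries. The ranges of Nab2 and Nab1 overlapped too, although Nab2 was above Nab1 in each library, by 1.08 to 1.48 times. Both overlaps rested on saline sample 1. Without it Egr4 ran from 12.30 to 13.87 FPKM, Nab2 from 10.71 to 12.23 FPKM and Nab1 from 8.27 to 9.34 FPKM. The order of the 6 genes was the same whichever library was left out.

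**Figure D1:**
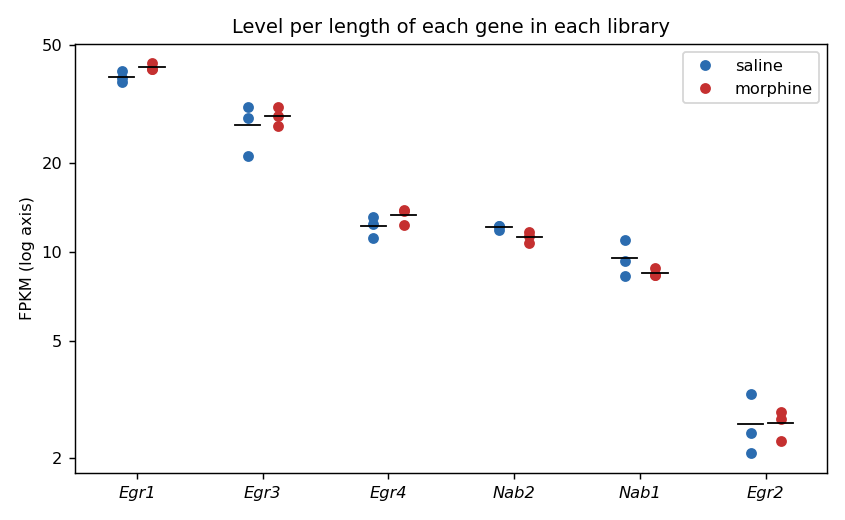
FPKM of each gene on a log axis, ordered by the mean over 6 libraries. Points are libraries (saline in blue, morphine in red) and black lines are group means. Egr1 is highest at 37.6 to 43.4 FPKM and Egr2 lowest at 2.08 to 3.31 FPKM, and the groups lie close together for every gene.

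The shares of the 4 genes in the Egr family differed between the groups by less than their SD. Egr1 made up 48.6% ± 3.12 of the summed Egr FPKM in saline and 48.5% ± 2.05 in morphine (SD, n = 3). Egr3 held 33.0% ± 3.18 and 33.1% ± 1.76, and Egr4 15.1% ± 0.893 and 15.3% ± 0.798 (SD, n = 3). The rest, 3.20% ± 0.496 in saline and 3.03% ± 0.392 in morphine, was Egr2 (SD, n = 3).

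The comparison of morphine with saline asks whether Egr and Nab RNA differed after the retrieval test between mice trained with morphine and with saline. Both groups took the test, so retrieval and the earlier morphine cannot be told apart. Differences were small in each of the 6 genes. The 4 Egr genes lay slightly above saline on average, by 2.39% to 10.6%, and both Nab genes slightly below. None of the 6 passed an adjusted p of 0.05 in edgeR's quasi-likelihood F test, which called 0 of 18970 genes (0.0%), while DESeq2 called 0 of the 6 and 15 of all genes. Without adjustment, p fell under 0.05 for 525 genes that were higher in morphine (2.77% of all tested) and for 940 that were lower (4.96%). Among the members this was the case for 1 on the higher side, Egr1, and for 0 on the lower side.

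Egr1 stood at 166, 175 and 184 normalized CPM in the saline libraries, given here and below in the order of samples 1, 2 and 3. The morphine libraries held 189, 193 and 190 normalized CPM. All 3 morphine libraries lay above all 3 saline libraries, as was the case for 5.98% of all genes tested. The means were 175 ± 8.99 and 191 ± 2.18 normalized CPM (SD, n = 3). On the log2 scale morphine was higher by 0.13 (standard error 0.05, 95% interval 0.01 to 0.24). This is a difference of 9.17% with an interval of 0.767% to 18.3%, an unadjusted p of 0.035 and an adjusted p of 0.62 in edgeR. With 3420 to 4387 counts per library, counting error came to 1.64% of the mean in saline, against a spread of 5.15% between the saline samples, while the morphine samples spread by 1.14%, no more than their counting error of 1.63%.
Egr1 did not keep the unadjusted p under 0.05 without saline sample 1 (log2 fold change 0.09, unadjusted p = 0.083 in edgeR). The same held without saline sample 2 (unadjusted p = 0.071 in edgeR) and without each of the morphine samples, with p in edgeR from 0.069 to 0.074. It also held on FPKM in limma, where p ran from 0.13 to 0.23. Without saline sample 3 the log2 fold change was 0.17 and p was 0.018 in edgeR.

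The saline libraries held 91.6, 125 and 137 normalized CPM of Egr3, and the morphine libraries 138, 117 and 129. Saline sample 1 lay far below the other 5 libraries, which mixed across the groups. The log2 fold change was 0.12 (standard error 0.12, 95% interval -0.15 to 0.40, adjusted p = 0.81 in edgeR). Without saline sample 1 it was -0.03 (standard error 0.06), of the opposite sign. With all libraries, the SD came to 19.9% of the mean in saline and 8.21% in morphine, against counting errors of 2.01% and 1.99%.

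The saline libraries held 23.5, 28.2 and 26.6 normalized CPM of Egr4, and the morphine libraries 29.97, 26.2 and 30.3. Morphine samples 1 and 3 were above every saline sample, and morphine sample 2 lay within the saline range. The log2 fold change was 0.14 (standard error 0.09, 95% interval -0.06 to 0.35, adjusted p = 0.71 in edgeR), and 0.08 without saline sample 1.

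The saline libraries held 6.94, 8.30 and 11.2 normalized CPM of Egr2, and the morphine libraries 7.91, 9.66 and 9.43. The morphine libraries all lay within the range of the saline libraries. It was the least counted member, with 143 to 220 counts per library and a counting error of 7.34% in saline. The difference was 0.03 on the log2 scale (standard error 0.18, 95% interval -0.36 to 0.42, adjusted p = 0.96 in edgeR). As a percent change, the interval reaches from -21.8% to 34.1%. The log2 difference was -0.11 without saline sample 1 and came to 0.25 without saline sample 3.

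**Figure D2:**
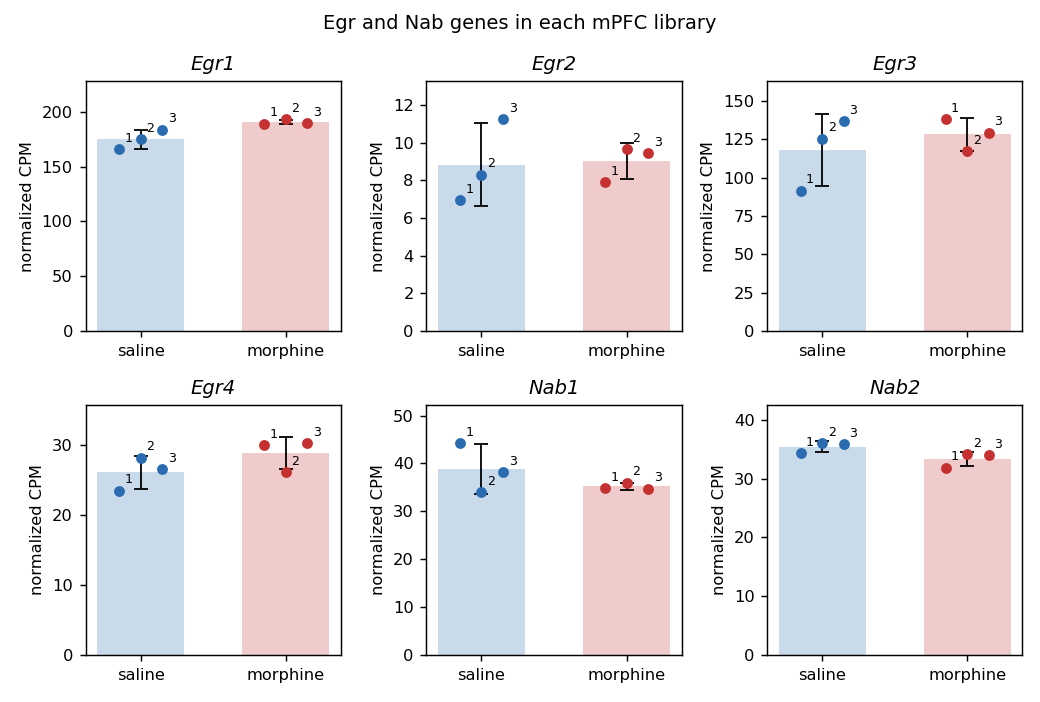
Normalized CPM of the 6 genes. Points are single libraries with their sample number, bars are means of 3 libraries and error bars are SD; for Egr1 the morphine points (189 to 193) are above the saline points (166 to 184), for Nab2 they are below, and the other genes overlap. Saline sample 1 is the lowest library for each Egr gene and the highest for Nab1.

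Of the corepressors, Nab1 stood at 44.3, 34.0 and 38.2 normalized CPM in saline and at 34.8, 36.0 and 34.8 in morphine. Saline sample 1 was again the outermost library, here on the high side, and saline sample 2 was below every morphine sample. The log2 fold change was -0.14 (standard error 0.09, 95% interval -0.35 to 0.06, adjusted p = 0.71 in edgeR). Without saline sample 1 it was -0.04, and without saline sample 2 it was -0.23, with an unadjusted p of 0.025 in edgeR.
The saline libraries held 34.3, 36.1 and 35.9 normalized CPM of Nab2, and the morphine libraries 31.9, 34.2 and 34.0. The morphine samples were all below the saline samples, as for 7.32% of all genes tested, but the nearest libraries, at 34.3 and 34.2, were almost level. The log2 fold change was -0.09 (standard error 0.07, 95% interval -0.24 to 0.06, adjusted p = 0.75 in edgeR). Leaving out 1 library gave -0.11 to -0.06. Of the genes that overlap it, Gm16229 was at 0.49 (unadjusted p = 0.037 in edgeR), Nemp1 at -0.18 and Stat6 at 0.03.

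**Figure D3:**
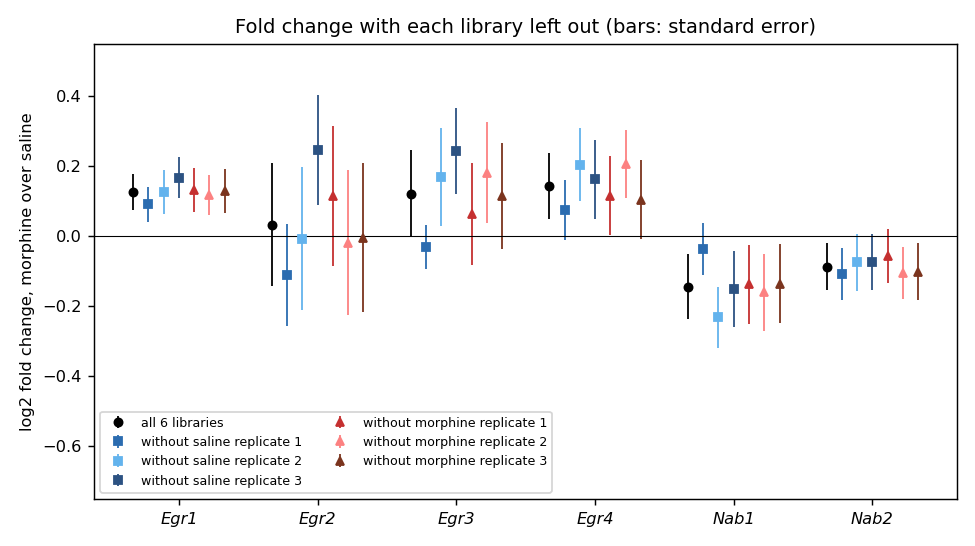
Log2 fold change of morphine over saline from edgeR with all 6 libraries (black) and with each library left out (blue squares for saline, red triangles for morphine). Bars are standard errors; Egr1, Egr4 and both Nab genes stay on their side of 0, Egr3 reaches -0.03 without saline sample 1, and Egr2 moves between -0.11 and 0.25.

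Saline sample 1 was the lowest library for all 4 Egr genes and the highest for Nab1. It is the library with high olfactory bulb markers and low excitatory neuron markers. Over the list of 10 excitatory markers the median log2 fold change was 0.17 and all 10 were above 0. The other marker lists had medians of 0.02 to 0.14, apart from olfactory bulb markers at -1.33. Of the excitatory markers, 2 passed an unadjusted p of 0.05 in edgeR on the higher side, as did 2.77% of all genes tested. Their summed levels were 4357 to 5353 normalized CPM in saline and 5098 to 5602 in morphine. In these sums saline samples 2 and 3, at 5353 and 5191, lay within the morphine range. Taken gene by gene, the groups did not overlap for 5 of the 10 markers, all higher in morphine, and 0 were lower in this way. The shares of all genes tested were 5.98% and 7.32%. For these 5 markers saline samples 2 and 3 were also below the morphine range, so their separation did not rest on saline sample 1 alone. The part of excitatory marker differences in the Egr values was not tested. Across the 5 other libraries Egr1 ran from 175 to 193 normalized CPM, Egr3 from 117 to 138, Egr4 from 26.2 to 30.3 and Egr2 from 7.91 to 11.2.

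The balance of activators and corepressors was described by the ratio of each Egr gene to each Nab gene within a library. Egr1 counts were 4.83, 4.84 and 5.12 times those of Nab2 in saline and 5.93, 5.65 and 5.59 times in morphine. The groups did not overlap, and the mean log2 ratio was 0.22 higher in morphine (exact permutation test, two-sided, p = 0.1, the smallest that 3 against 3 allow). Of the genes tested, 15.4% had a ratio to Nab2 that was higher in every morphine library. Egr1 to Nab1 went from 3.74, 5.14 and 4.81 to 5.43, 5.37 and 5.46, a difference of 0.26 on the log2 scale (exact permutation test, two-sided, p = 0.1), where 9.34% of genes did not overlap in that direction. For Egr2, Egr3 and Egr4 the ratios to Nab1 and Nab2 overlapped between the groups, with differences of 0.14 to 0.28. These ratios count reads and are not per length. In summed FPKM, Egr over Nab was 3.75 ± 0.524 in saline and 4.41 ± 0.245 in morphine (SD, n = 3), with the lowest value, 3.15, in saline sample 1.

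Among other immediate early genes, several were lower in morphine. From a list of 36 such genes, 35 were tested, and 12 of them were lower and 2 higher with an unadjusted p under 0.05 in edgeR. Of all genes tested, 4.96% were lower and 2.77% higher at that threshold. Of the 35 list genes, 0 passed an adjusted p of 0.05 in edgeR and 5 did in DESeq2, which called 15 genes in all. The median log2 fold change was -0.11, against 0.12 over the 4 Egr genes and -0.01 over all genes tested. The Egr median was 0.02 with saline sample 1 left out and 0.21 with saline sample 3 left out. This list was written with results on several of its genes known, and it is described here and not tested.
Of the lower genes, the smallest p belonged to Nr4a1, a nuclear receptor gene, at -0.64 on the log2 scale. With it were Dusp1 (-0.78) and Dusp5 (-0.49), which encode phosphatases that switch off MAP kinases, the AP-1 genes Fos (-0.56), Junb (-0.58) and Fosl2 (-0.23), and the antiproliferative gene Btg2 (-0.84). The pseudokinase gene Trib1 (-0.43), the neuronal transcription factor gene Npas4 (-0.47), Ier2 (-0.59) and the matricellular gene Cyr61 (-0.63) were lower as well. Arc, which encodes a cytoskeleton-associated synaptic protein and is a reported Egr target, stood at 129, 173 and 206 normalized CPM in saline and at 102, 124 and 118 in morphine. Its log2 fold change was -0.56 (standard error 0.14, adjusted p = 0.57 in edgeR), with all morphine libraries below all saline libraries. That was so for 7.32% of all genes tested.
Ier5 and the zinc finger gene Klf6 were the 2 on the higher side, at 0.28 and 0.17. Ier5 stood at 63.3, 84.0 and 69.9 normalized CPM in saline and at 87.9, 88.4 and 86.6 in morphine. Leaving out 1 library gave 10 to 13 lower and 2 to 3 higher genes, and the list's median came to -0.07 with saline sample 1 left out and to -0.06 with morphine sample 1 left out.

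**Figure D4:**
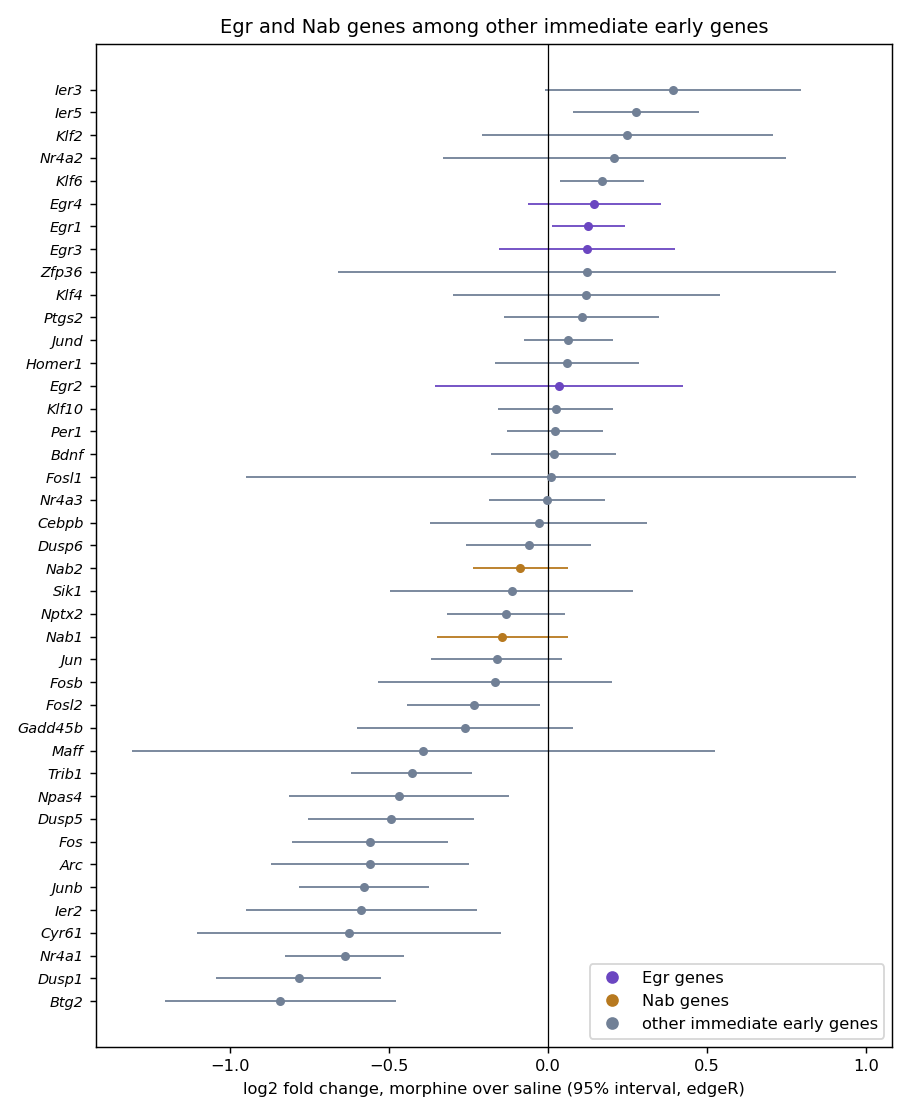
Log2 fold changes of morphine over saline with 95% intervals from edgeR for 4 Egr genes (purple), 2 Nab genes (brown) and 35 other immediate early genes (grey). The Egr genes lie between 0.03 and 0.14, while Btg2, Dusp1, Nr4a1, Junb, Arc and Fos lie between -0.84 and -0.56 with intervals below 0.

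Of the early genes, Fos, Junb and Nr4a1, picked for their low values in morphine, were set against the Egr genes within each library. Egr1 counts were 6.64, 8.35 and 6.93 times those of Fos in saline and 11.2, 13.1 and 10.9 times in morphine. The mean log2 ratio was 0.69 higher in morphine (exact permutation test, two-sided, p = 0.1, the smallest possible). The ratios of all 4 Egr genes to Fos, Junb and Nr4a1 did not overlap between the groups, with differences of 0.61 to 0.78 on the log2 scale. Given that choice, most genes share this: 66.4% of genes tested had a ratio to Fos that was higher in every morphine library, 69.0% a ratio to Junb and 74.5% a ratio to Nr4a1. None of the 20 ratios tested could reach 0.05, as 3 against 3 allow no p below 0.1 in this exact permutation test. The smallest p after Benjamini-Hochberg adjustment was 0.14. That value rests in part on the ratios to Fos, Junb and Nr4a1, which were picked for their low values, so no conclusion is drawn from it.

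Upstream of the Egr genes, the list of the ERK cascade, SRF and CREB held 27 genes, all tested. With an unadjusted p under 0.05 in edgeR, 2 stood higher and 1 lower, and the median log2 fold change was 0.05. Over all genes tested, 2.77% stood higher and 4.96% lower at that threshold, and the median was -0.01. Hras, a small GTPase gene at the head of the cascade, was at 0.20 (38.4 ± 1.76 to 44.0 ± 3.56 normalized CPM, SD, n = 3). Map2k2, the gene of the ERK kinase MEK2, was at 0.15. In both genes every morphine library lay above every saline library, as for 5.98% of all genes tested. Their adjusted p in edgeR was 0.62 to 0.64. The counts were 0 in both directions without saline sample 3 or without morphine sample 1, and 3 higher and 2 lower without saline sample 1.
Of 13 genes of NuRD, the chromatin complex through which Nab proteins act, 1 passed an unadjusted p of 0.05 in edgeR. This was Mbd3, a core subunit gene, at 0.22. Among all genes tested, 2.77% passed on the higher side and 4.96% on the lower side. The next by p, Mta1 and Hdac1, were at 0.08 and -0.12, and the list's median was 0.03. Without saline sample 3 or morphine sample 1, 0 of the 13 passed, and the median was below 0. Of 18 reported Egr targets 16 were tested, with a median of 0.06. Arc was the 1 gene past an unadjusted p of 0.05 on the lower side, and 0 were on the higher side. The shares of all genes tested were 4.96% and 2.77%. Htr2a, the serotonin receptor gene reported as an Egr3 target, was at 0.18 (90.1 ± 10.0 to 102 ± 8.95 normalized CPM, SD, n = 3) and Cdk5r1, which encodes the Cdk5 activator p35, was at 0.11, both with overlapping groups. Without morphine sample 2, 4 of the 16 stood higher with an unadjusted p under 0.05 in edgeR, against 2 without saline sample 1 and 1 without saline sample 3. The share over all genes in the same fits is not given here. These counts, and those of the other lists with a library left out, therefore have no background beside them and show no rise of the targets.

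The genes most like each member in pattern were sought among 12148 genes with a mean of at least 5 normalized CPM. Likeness was the root mean square difference of log2 profiles over the 6 libraries, each profile centred on its own mean. Nearest to Egr1 were Mon1b, Ubl4a and Fam76a, at differences of 0.01 to 0.02. Nearest to Egr3 were Kctd16, Rspo2 and Ppm1m at 0.03 to 0.04, and near Egr4 were Cyfip2 and Dlgap3 at 0.02. The gene nearest to Egr2, Pbx4, was farther off at 0.06. Mid2, Gng7 and Dcakd were nearest to Nab1, and Mia2, Zfp169 and Tbk1 to Nab2. Among the members themselves, the difference was smallest for Egr1 and Egr4 at 0.10, followed by Egr1 and Nab2 at 0.11. It was largest for Egr3 and Nab1 at 0.31. This measure is small between any genes that vary little. Egr1 and Nab2 do not share a direction, with log2 fold changes of 0.13 and -0.09.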

How the data were processed

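RNA was sequenced from rRNA-depleted, directional libraries of 6 mPFC samples, grouped by their labels. The authors deposited 1 table with whole-number counts, not normalized, and FPKM values per gene and library. According to the submitters' processing notes, tools were HISAT2 2.1.0 and cutadapt 1.9.3, StringTie 1.3.3 and HTSeq 0.11.2, and limma 3.40.6, DESeq 1.8.3 and DESeq2 1.26.0, with mm10 as the build and no roles given. Over 13342 genes the deposited FPKM were these counts divided by a length and a library factor. Coordinates come from GENCODE M21 (GRCm38, the same build as mm10).

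Genes that reached 10 counts in 3 or more libraries were kept, and their counts were TMM-normalized and tested with edgeR 4.0.16 in R 4.3.3 (quasi-likelihood F test, two-sided, group as the only term), with Benjamini-Hochberg adjustment over all genes tested. The standard error is the fold change over the square root of F. The fit was tested on simulated data. Alternatives were DESeq2 1.42.0, RLE factors, 2 other filters, the replicate number as a block, limma 3.58.1 on log2(FPKM + 0.1) and log2(FPKM + 1), and each library left out, which was extended to the median of the 4 Egr genes after seeing the data. Replicates differed beyond sampling noise, with chi-square 2.91 to 14.7 times its degrees of freedom. Intervals of counting cover counting error only.

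Named genes are all members, list genes with an unadjusted p under 0.05 (or the 3 of lowest p), and the 3 genes nearest in pattern to each member. Of these, 2 genes are not reported here. Genes that overlap Nab2, the inhibitory markers named, Fos, Junb and Nr4a1 as partners of ratios, and the ratios themselves were added after their values were seen. The members and lists were chosen with earlier results of these data known, and the lists were written from general knowledge. The marker lists for inhibitory neurons, astrocytes, oligodendrocytes, microglia, vessels and striatum had medians of 0.14, 0.02, 0.12, 0.06, 0.13 and 0.06 on the log2 scale, and olfactory bulb markers -1.33.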

Additional observations from a re-analysis of the deposited data

How the results depend on the processing

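The median of the 4 Egr genes, a value added after seeing the data, ranged from 0.02 to 0.21 with a library left out. Under 14 alternatives each, Egr4 and Nab2 kept their direction and their side of an unadjusted p of 0.05, and Egr1 kept its direction in all 14 and that p in 6. Members higher at an unadjusted p under 0.05 numbered 1 with all libraries, 0 on each of the 3 FPKM settings, and 0 to 1 with a library left out; members lower numbered 0, and 0 to 1 with a library left out, the 1 being Nab1 without saline sample 2. Egr2 reversed to -0.11 and -0.01 without saline samples 1 and 2, and to -0.02 and -0.003 without morphine samples 2 and 3, and Egr3 to -0.029 without saline sample 1. With a library left out, Egr2 ranged from -0.11 to 0.25 and Egr3 from -0.029 to 0.24. The median of the NuRD list ranged from -0.013 (morphine sample 1 left out) to 0.035, and was -0.0046 with saline sample 3 left out. Genes called at an adjusted p under 0.05 over the whole table were 0 in edgeR, 15 in DESeq2, 279 with no filter, 4 on log2(FPKM + 0.1), and 0 to 186 with a library left out, the latter without saline sample 1. The cause was not tested. Same-numbered samples deviated together no more than others, with correlations of -0.02 to 0.02 against -0.03 to 0.04 between different numbers. With 3 samples in a group, this cannot settle whether the number marks a pairing. With the replicate block Egr1 was at 0.13 and Egr3 at 0.14, members past an unadjusted p of 0.05 remained 1 higher and 0 lower, and the upstream list had 1 higher and 0 lower.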
